A study of Arabidopsis thaliana with 36 samples.

Results

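DPE1 (AT5G64860) and PWD (AT5G26570) are a pair of starch breakdown genes of Arabidopsis thaliana, and their signals were followed through a day in shoots and in roots. They were chosen by locus as enzymes of starch and maltotriose breakdown, and all their probe sets were taken. Each gene had 1 probe set (247216_at for DPE1 and 246829_at for PWD), so the members are 2 of 22810 probe sets on the array. A further probe set that carries the symbol PWD (254153_at) belongs to another locus, AT4G24450, a relative listed as ATGWD2, and was treated as a different gene.

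RNA came from Col-0 plants (stock N1092), the reference accession, grown in boxes on Murashige and Skoog medium with 16 h of light a day at 24 °C and 50% humidity. All 18 groups were unstressed controls of a stress series: each combined a tissue, shoots or roots, with 1 of 9 times (0, 0.25, 0.5, 1, 3, 4, 6, 12 and 24 h), and each had 2 Affymetrix ATH1 arrays. Sampling started on day 16 after 3 h of light, and the boxes were carried out of the growth chamber, opened and returned as for stressed plants. By this schedule plants sampled at 6 h had been in the light for 9 h and those sampled at 12 h for 15 h. Sampling at 24 h repeated the clock hour of the start, after 1 dark period.

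Leaves store part of the carbon they fix as starch granules in the chloroplast and degrade them at night to maltose and glucose. PWD, phosphoglucan water dikinase, adds phosphate to glucans already phosphorylated by the related enzyme GWD1, which loosens the granule surface for the amylases. Beta-amylases then release maltose and leave maltotriose, which they cannot use; DPE1, the plastid disproportionating enzyme, transfers glucan units between such short chains, releasing glucose and rebuilding chains long enough for another round. Roots hold starch as well, in the plastids of the root cap.

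The values are MAS5 signals, which have no absolute unit. Every array had been scaled alike, with a trimmed mean between 100.007 and 100.01. A signal near 100 is nevertheless above that of the middle probe set. The share of probe sets that reached 40 lay between 47.9% and 54.0% on every array, so the middle one was near 40. Replicate arrays correlated with r between 0.971 and 0.992 over the 15091 probe sets that reached a signal of 40 on at least 2 arrays. The 6 shoot markers summed to 20021 to 25962 in shoots, where in roots they reached 153 to 306. The 3 root markers summed to 3201 to 4148 in roots and 464 to 2027 in shoots, and no marker was at 0. In shoots that sum was carried by PYK10, a beta-glucosidase gene, while EXPA7 and EXPA18 reached 40 on 0 shoot arrays. The labels do not say whether the arrays of a group hold separate plants. All p-values below therefore reflect only how far these arrays differ, possibly for technical reasons, and precision is limited by their number. The arrays measured RNA of whole organs, in which fewer cells of a type and less RNA per cell cannot be told apart.

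DPE1 was low in shoots in the early hours, high from 3 h to 12 h and low again at 24 h. At 0 h its signals on the 2 shoot arrays were 37.1 and 42.0. They were 49.6 and 42.4 at 0.25 h, 40.4 and 57.8 at 0.5 h, and 63.6 and 71.8 at 1 h. The arrays of 0.5 h overlapped with those of 0 h and of 0.25 h, which did not overlap with each other, and both arrays of 1 h lay above all of these. At 3 h the signals were 269 and 248, and at 4 h 254 and 280, so that these neighbours overlapped. The highest values were 547 and 525 at 6 h, followed by 340.4 and 348 at 12 h. At 24 h the arrays read 44.4 and 37.4, within the range of the 0, 0.25 and 0.5 h arrays.

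Expressed as means, DPE1 went from 39.5 ± 3.47 (SD, n = 2) at 0 h to 536 ± 15.5 (SD, n = 2) at 6 h in shoots, an 11.0-fold difference on the scale of signal plus 10. On the log2 scale this was 3.47 with a standard error of 0.13. The steepest interval between neighbouring times in the light was that from 1 h to 3 h, with a log2 difference of 1.79, while 3 h and 4 h differed by 0.05. Between 12 h and 24 h, an interval that contains the dark period, the log2 signal fell by 2.80. The shoot course was the reason these genes were first named in earlier results of the same data, so it is given without a test.

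PWD had the same general course in shoots, with a smaller fall from 6 h to 12 h than DPE1. Its signals were 99.5 and 122 at 0 h, 119 and 104 at 0.25 h, 106 and 100.4 at 0.5 h, and 117 and 127 at 1 h. Taken in order of level, each of these 4 times overlapped with its neighbour. At 3 h the arrays read 340 and 284, at 4 h 395 and 451, at 6 h 1061.5 and 989, and at 12 h 917 and 869. These times did not overlap with each other or with any earlier time. At 24 h the signals were 132 and 129, above every array from 0 to 1 h by a small margin and far below those of 3 h.

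The mean of PWD in shoots was 111 ± 16.2 (SD, n = 2) at 0 h and 1025 ± 51.0 (SD, n = 2) at 6 h, an 8.59-fold difference. The log2 difference was 3.10 with a standard error of 0.13. In contrast to DPE1, PWD still differed by 0.43 on the log2 scale between 3 h and 4 h. From 6 h to 12 h it fell by 0.20, against 0.62 for DPE1. From 12 h to 24 h it fell by 2.69. The shoot range between the lowest and highest group mean was 3.47 for DPE1 and 3.19 for PWD on the log2 scale, beside a median of 0.62 over all probe sets tested. Of those probe sets, 0.875% had a larger range than DPE1 and 1.22% a larger range than PWD. A change over time in shoots was called for 62.6% of all probe sets (limma F-test, Benjamini-Hochberg adjusted p under 0.05), and a higher signal at 6 h than at 0 h for 18.7%; nothing is read from these shares, since the members were named from that course.

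**Figure D1:**
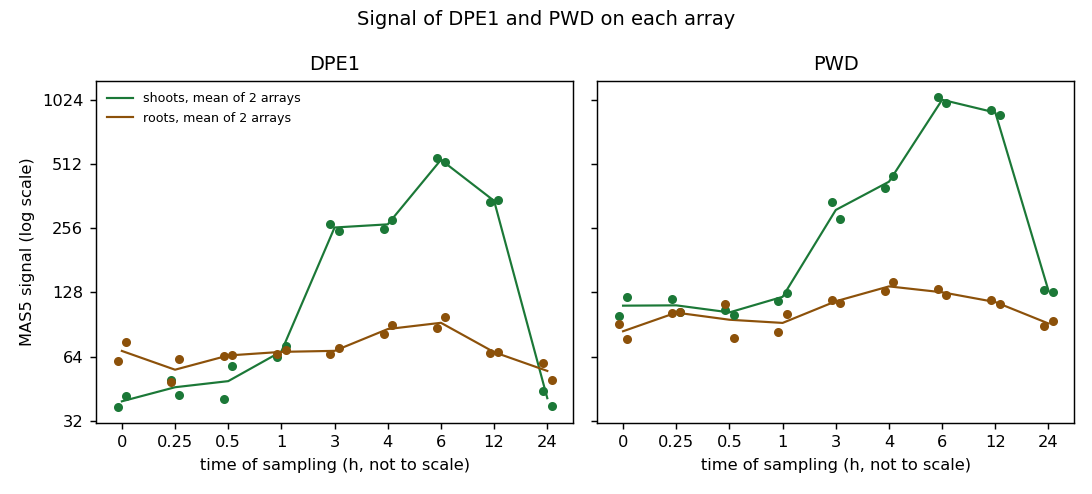
MAS5 signal of DPE1 (left) and PWD (right) on each of the 36 arrays (points) against the time of sampling in hours, on a log axis, with lines through the means of 2 arrays for shoots and roots. In shoots both genes peak at 6 h, at a mean of 536 for DPE1 and 1025 for PWD, while no root array exceeds 97.7 for DPE1 or 143 for PWD.

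The 2 courses differed in shape within the shoot. Set against each gene's own 6 h mean, DPE1 was at 48.2% at 3 h and 49.8% at 4 h, and PWD at 30.4% and 41.3%. At 12 h the order was turned, with DPE1 at 64.2% and PWD at 87.1%. At 0 h and 24 h DPE1 stood at 7.37% and 7.62%, and PWD at 10.8% and 12.7%. DPE1 was thus nearer to its own 6 h mean than PWD at 3 h and 4 h, and PWD nearer at 12 h.

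The same difference was read within each array, where scaling and RNA input are shared. The log2 signal of PWD minus that of DPE1 has an offset set by the probes, so only its movement between arrays carries meaning. On the shoot arrays it was 1.22 and 1.35 at 0 h, 0.33 and 0.19 at 3 h, 0.94 and 0.90 at 6 h, 1.40 and 1.30 at 12 h, and 1.38 and 1.55 at 24 h. The 3 h arrays lay below all of the others named here, and the 12 h arrays above those of 3 h and 6 h. In roots the group means of this quantity ran from 0.27 to 0.79. These differences are given as a description.

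**Figure D2:**
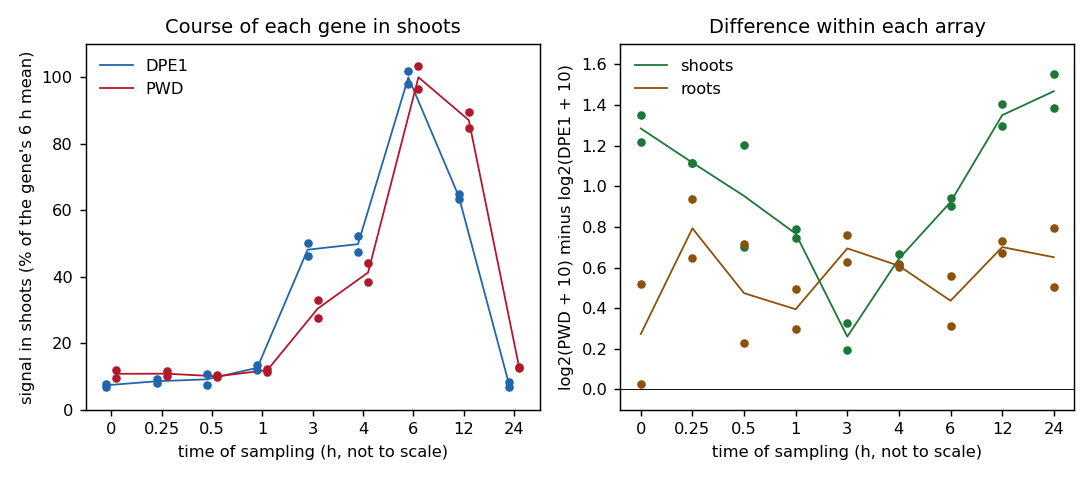
Left, shoot signal of DPE1 and PWD as a percentage of each gene's own 6 h mean; right, log2(PWD + 10) minus log2(DPE1 + 10) within each array in shoots and roots; points are arrays, lines join means of 2 arrays, and the x axes give the sampling time in hours. DPE1 is at 48.2% and PWD at 30.4% of the 6 h mean at 3 h, and at 12 h the values are 64.2% and 87.1%.

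In roots both genes varied far less. Root signals of DPE1 were 60.8 and 75.3 at 0 h, 48.5 and 62.7 at 0.25 h, 64.7 and 65.0 at 0.5 h, 65.9 and 68.9 at 1 h, and 65.8 and 70.5 at 3 h. They were 82.0 and 90.5 at 4 h, 86.8 and 97.7 at 6 h, 66.9 and 67.4 at 12 h, and 59.9 and 49.8 at 24 h. The 4 arrays of 4 h and 6 h overlapped with each other and lay above all other root arrays, and the lowest reading of each of 0.25 h and 24 h lay below the rest.

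DPE1 changed over time in roots by the F-test over all 9 times (F = 5.52, adjusted p = 0.01, limma), a call made for 17.6% of all probe sets tested. Its root range was 0.66 on the log2 scale, beside a median of 0.43 over all probe sets, and 21.0% of probe sets had a larger one. No single time differed from 0 h for DPE1 past the threshold. The log2 difference from 0 h was 0.31 at 4 h (adjusted p = 0.189) and 0.39 at 6 h (adjusted p = 0.085), each with a standard error of 0.13. At 24 h it was -0.27 (adjusted p = 0.328).

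The root signals of PWD were 91.4 and 77.1 at 0 h, 102 and 104 at 0.25 h, 113 and 77.9 at 0.5 h, and 83.2 and 101 at 1 h. At 3 h they were 118 and 115, at 4 h 131 and 143, at 6 h 133 and 124, at 12 h 118 and 113, and at 24 h 89.3 and 93.8. All 8 arrays from 3 h to 12 h were at or above the highest of the earlier arrays and of the 24 h arrays.

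The root course of PWD also passed the F-test (F = 5.64, adjusted p = 0.0091, limma), with a range of 0.64, and 22.4% of all probe sets had a larger range. Against 0 h, PWD in roots rose by 0.43 at 3 h (adjusted p = 0.049), 0.64 at 4 h (adjusted p = 0.0070) and 0.56 at 6 h (adjusted p = 0.0147), each with a standard error of 0.13. A higher signal than at 0 h was called for 4.34% of all probe sets at 3 h, 2.47% at 4 h and 3.00% at 6 h. At 12 h the difference was 0.42 (adjusted p = 0.082). All of these root calls rested partly on single arrays. Without the second root array of 0 h the difference was 0.53 at 4 h (adjusted p = 0.138) and 0.45 at 6 h (adjusted p = 0.174). Without the second root array of 4 h that at 4 h was 0.58 (adjusted p = 0.097), and without the first root array of 6 h that at 6 h was 0.51 (adjusted p = 0.115). The call at 3 h was lost in 30 of 48 alternative settings.

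A day after the start, neither gene differed from 0 h past the threshold. In shoots the log2 difference between 24 h and 0 h was 0.04 for DPE1 (95% interval -0.24 to 0.31, adjusted p = 0.888) and 0.22 for PWD (95% interval -0.05 to 0.50, adjusted p = 0.282). A difference in either direction was called for 15.5% of all probe sets in that comparison. In roots the difference for PWD was 0.11 (95% interval -0.16 to 0.39, adjusted p = 0.741), and 2.02% of all probe sets were called.

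The courses of both genes differed between shoots and roots. The change from 0 h to 6 h was larger in shoots than in roots by 3.07 ± 0.19 (SE) on the log2 scale for DPE1 and by 2.55 ± 0.19 (SE) for PWD. Over all times, the test of the difference between courses gave F = 89.0 for DPE1 (adjusted p = 5.1e-12, limma) and F = 71.0 for PWD (adjusted p = 3.2e-11, limma). It was passed by 40.9% of all probe sets. This test holds the shoot course from which the genes were first named, so its size is not independent of that choice.

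Whether shoots or roots had more signal depended on the time, and for DPE1 the order turned. Over all times the median signal of DPE1 was 67.7 on the 18 shoot arrays (lowest 37.1, highest 547) and 66.4 on the 18 root arrays (lowest 48.5, highest 97.7). That of PWD was 130.4 in shoots (lowest 99.5, highest 1061.5) and 108 in roots (lowest 77.1, highest 143). The tissues overlapped for both genes over all times. Averaged over times on the log2 scale, shoots exceeded roots by 0.71 ± 0.044 (SE) for DPE1 (adjusted p = 2.8e-13) and by 1.12 ± 0.044 (SE) for PWD (adjusted p = 3.2e-17). A higher shoot signal was called for 31.6% of all probe sets, and the median difference over all of them was -0.33. Both averages hold the shoot course from which the genes were first named, so they are not independent of that choice.

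At 0 h, DPE1 was lower in shoots than in roots by a log2 difference of -0.65 (SE 0.13, adjusted p = 0.00012), and none of the arrays overlapped. A lower shoot signal was called for 52.3% of all probe sets at that time, and their median difference was -0.37. DPE1 was also lower in shoots at 0.5 h (-0.36, adjusted p = 0.0186, beside 50.0% of all probe sets) and at 24 h (-0.35, adjusted p = 0.020, beside 52.3%). After quantile normalization over all arrays these differences were -0.40 at 0 h (adjusted p = 0.0105), -0.14 at 0.5 h (adjusted p = 0.342) and -0.09 at 24 h (adjusted p = 0.559), so only the call at 0 h was kept. At 0.25 h (-0.22, adjusted p = 0.129) and 1 h (0.0041, adjusted p = 0.979) no difference was called, while a lower shoot signal was called for 49.3% of all probe sets at 0.25 h and 45.7% at 1 h. Without the first root array of 0.25 h, the difference at that time was -0.38 (adjusted p = 0.0342).

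From 3 h to 12 h, DPE1 was higher in shoots, with log2 differences of 1.78 (3 h), 1.53 (4 h), 2.42 (6 h) and 2.199 (12 h). At 6 h this was 5.35-fold (adjusted p = 1.2e-13). These differences hold the shoot rise from which the genes were first named, so their size is not independent of that choice. The background share called higher in shoots was 27.2%, 27.1%, 26.3% and 26.1% at these times, so a call in this direction was not rare. The arrays of the tissues did not overlap at any of these 4 times.

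PWD, in contrast, had a log2 difference above 0 at each of the 9 times with all arrays in the fit. The difference was 0.36 at 0 h (adjusted p = 0.0179), 0.38 at 1 h (adjusted p = 0.0147) and 0.47 at 24 h (adjusted p = 0.0029), against shares of 25.2%, 27.1% and 26.0% of all probe sets called higher in shoots. It was 0.10 at 0.25 h (adjusted p = 0.494) and 0.12 at 0.5 h (adjusted p = 0.402), where 27.6% and 26.6% of all probe sets were called higher in shoots. At 0.5 h it turned to -0.12 without the second root array, which read 77.9, was 0.36 (adjusted p = 0.0243) without the first, which read 113, and was 0.35 (adjusted p = 0.0229) after centring on array medians. The call at 0 h was lost without the second shoot array (0.22, adjusted p = 0.212) or the second root array of that time (0.25, adjusted p = 0.17). The call at 1 h was lost without the second shoot array (adjusted p = 0.091) or the first root array (adjusted p = 0.175) of that time. From 3 h to 12 h the differences were 1.34, 1.56, 2.90 and 2.85, and that at 6 h was 7.49-fold (adjusted p = 4.4e-15). As for DPE1, these hold the shoot rise from which the gene was first named.

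**Figure D3:**
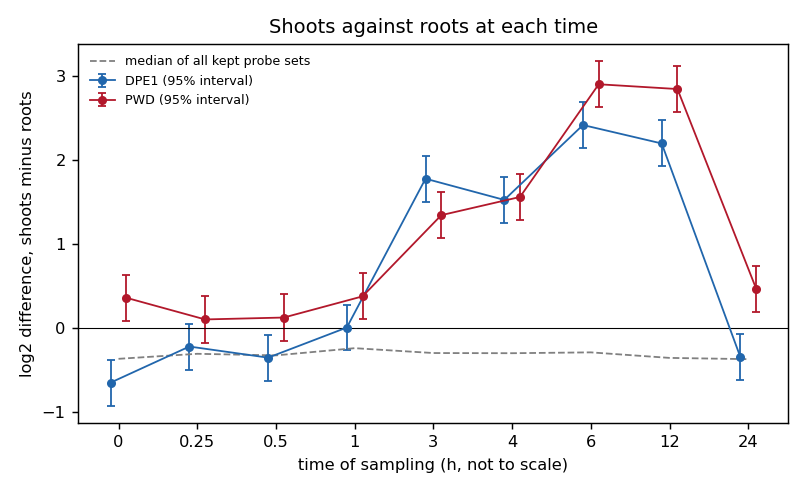
Log2 difference between shoots and roots for DPE1 and PWD at each sampling time in hours (points, with 95% intervals from the limma fit to 2 arrays a group), beside the median over all probe sets kept (dashed line). DPE1 lies at -0.65 at 0 h and 2.42 at 6 h, PWD at 0.36 and 2.90.

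Root-type signal on the shoot arrays, and shoot-type signal on the root arrays, were set beside these values. A set of 94 probe sets, chosen for a high root signal that was lower in shoots by 16-fold or more, had 1.08% to 5.41% of their root signal on shoot arrays, and 3.87% ± 2.18 (SD, n = 2) at 0 h. At that share, the root signal of DPE1 would give 2.64 of its 39.5 at 0 h in shoots, and that of PWD 3.26 of its 111. In the other direction, 310 probe sets chosen in the same way for shoots had 1.79% to 2.54% of their shoot signal on root arrays. At the share measured at 6 h, 2.12%, the shoot signal would give 11.4 of the 92.2 of DPE1 in roots and 21.7 of the 128 of PWD. At 0 h, with 2.38%, it would give 0.94 of 68.1 for DPE1 and 2.64 of 84.2 for PWD. The rise of the root mean from 0 h to 6 h equalled 4.508% of the 6 h shoot signal for DPE1 and 4.295% for PWD. The rise to 4 h equalled 6.79% and 12.4% of the 4 h shoot signal, where the measured share was 2.16%. The choice of the 94 and 310 probe sets limits how high a measured share can be. The part of RNA from the other tissue in the members' values was not tested.

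The signal of the 25S ribosomal RNA control also moved with time. In shoots it was 990 ± 60.3 (SD, n = 2) at 0 h and 2536 ± 181 at 6 h. By 12 h it was 1475 ± 64.6, and 955 ± 199 at 24 h, so it was high at 6 h and low at 24 h as the members were. It was already 2171 ± 156 at 0.25 h, when DPE1 was at 46.0 ± 5.03 and PWD at 111 ± 10.9. With this control as a covariate the shoot range was 3.49 for DPE1 and 3.07 for PWD, and the difference between courses had adjusted p-values of 3.3e-10 and 8.5e-10 (limma). Both values hold the shoot course from which the genes were first named. Whether the movement of this control bears on the members' courses was not tested. With the same covariate the root difference of PWD between 0 h and 6 h was 0.47 (adjusted p = 0.126) and that between 0 h and 4 h 0.53 (adjusted p = 0.204).

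Other starch genes were read from a list of 28 breakdown genes and a list of 18 synthesis genes, of which the probe table names 5 each. Of the breakdown list, 4 passed the filter: DPE1, PWD, ATGWD2 and AT3G55760. The alpha-amylase gene AMY1 did not pass, with signals from 11.0 to 40.8. DPE1 was at or above 40 on 34 of 36 arrays and PWD on all 36. AT3G55760 and ATGWD2 reached that level on no root array and passed through shoots alone, so no tissue or root result is given for them. AT3G55760 did so on 7 arrays, so its course is given as values with no test.

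Both members were called over time in roots, beside 17.6% of all probe sets. No count of called genes is given for this list, since AT3G55760 and ATGWD2 passed the filter through shoots alone. AT3G55760 had shoot signals of up to 93.6 with a median of 32.9, and its mean was highest at 6 h (81.9), as for both members. Its mean at 0 h was 22.7 and at 24 h 25.1. ATGWD2, the relative that shares the symbol PWD in the probe table, had shoot signals between 44.3 and 69.2 with a median of 55.6. It was not called over time in shoots (adjusted p = 0.484), where the signal of PWD itself differed 8.59-fold between 0 h and 6 h.

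Of the synthesis list, 3 genes passed the filter, and 2 were called over time in shoots, near the share of all probe sets (62.6%). Those 2, APL3 and AT5G39790, passed the filter through shoots alone, so nothing is read from this count. In roots SBE2.2 alone was called, beside 17.6% of all probe sets, and it was the only gene of the 3 that reached 40 on a root array. AT5G39790 had shoot signals between 47.4 and 113 and a log2 difference of 1.01 between 6 h and 0 h (adjusted p = 3.0e-08). APL3, a large subunit of the enzyme that makes ADP-glucose for starch synthesis, was called narrowly in shoots (adjusted p = 0.0456). SBE2.2, a starch branching enzyme, had shoot signals between 434 and 668 and was not called over time there (adjusted p = 0.121). In roots the log2 difference of SBE2.2 from 0 h was -0.69 at 4 h (adjusted p = 0.0054) and -0.79 at 6 h (adjusted p = 0.0014). A lower signal than at 0 h was called for 2.39% of all probe sets at 4 h and 2.43% at 6 h. PWD was higher in roots than at 0 h at these times. Its calls were lost with the ribosomal RNA covariate and when certain single arrays were left out, as given above.

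**Figure D4:**
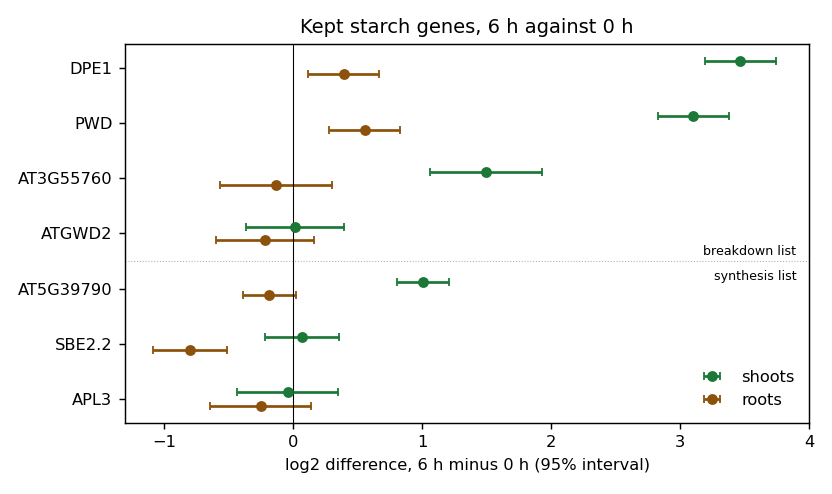
Log2 difference between 6 h and 0 h in shoots and in roots for the 7 starch genes that passed the filter (points, with 95% intervals from the limma fit), breakdown list above and synthesis list below the dotted line. DPE1 lies at 3.47 and PWD at 3.10 in shoots and SBE2.2 at -0.79 in roots. Of the other genes shown none reached a signal of 40 on a root array, so their root points are not read. AT3G55760 reached it on 7 shoot arrays, so its shoot interval is not read either.

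The genes most like each member were found by Pearson's r over the 9 group means of a tissue, among genes with a range of at least 1 on the log2 scale. In shoots, 1642 genes were compared. The 5 most like DPE1 were AT1G10090 (r = 0.997), AT5G27280 (0.991), AT4G30660 (0.989), AT1G56300 (0.988) and AT1G67660 (0.988). The 5 most like PWD were AT5G39410 (0.995), AT4G16146 (0.993), AT1G31850 (0.992), THIC (0.991), an enzyme of thiamine synthesis, and AT4G30650 (0.990). AT1G31850 and THIC were highest at 12 h, where PWD was at 87.1% of its 6 h mean. DPE1 and PWD correlated with r = 0.963 in shoots, which placed PWD 46th for DPE1 and DPE1 39th for PWD.

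In roots 592 genes were compared, and the highest r values were lower than in shoots. AT1G56300, among the 5 most like DPE1 in shoots, was also the gene most like it in roots (r = 0.877), followed by AT4G30650 (0.872), AT3G04550 (0.852), AT2G16365 (0.841) and AT1G13930 (0.824). For PWD in roots the order was CHX16 (0.975), a member of a cation exchanger family, AT1G11210 (0.974), AT3G04550 (0.925), AT4G33980 (0.913) and AT4G16146 (0.896). DPE1 and PWD correlated with r = 0.70 across the 9 root means. All these r values describe 9 means that share libraries and scaling and carry no test.

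The clock-associated gene GI differed from the members in its return. Of a list of 17 clock genes it was the only 1 that the probe table names, so it stands for itself alone. Its shoot signal was higher at 6 h than at 0 h by 2.76 on the log2 scale, and at 12 h it was back within 0.04 of 0 h, when the differences of DPE1 and PWD from 0 h were 2.84 and 2.91.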

How the data were processed

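The deposited values are one MAS5 intensity per probe set and array, per the submitters' processing notes. The sources used here do not give the version. The authors had scaled each array to a common trimmed mean, as the values show, and no further scaling was applied. Tissue, time and replicate number came from the labels.

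Signals were converted to log2 after adding 10. The 64 control probe sets were set aside, and the 15091 probe sets with at least 40 on at least 2 arrays were fitted. The probe table gave 1 gene for 13513 probe sets, several for 503 and none for 8794. Of the first, 13436 matched the RefSeq gene table (TAIR10.1).

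One mean per group was fitted with limma 3.58.1 (R 4.3.3, lmFit and eBayes, 18 residual and 4.06 prior degrees of freedom), which was tested on simulated data. All p-values are from this fit, two-sided and adjusted by Benjamini-Hochberg over the 15091 probe sets, with a threshold of 0.05. Folds are on the scale of signal plus 10, which understates changes of low signals. The list of named genes was the members, the kept genes of the starch lists, GI from the clock list, and the 5 genes most like each member per tissue. The members and lists were chosen with earlier results of these data known.

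Same-numbered replicates did not deviate together (r between -0.115 and 0.0502), so no block was used. Alternatives covered the pseudocount, filter, normalization, prior, block, ribosomal RNA and each array left out.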

Additional observations from a re-analysis of the deposited data

Results flagged for a closer look

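The change of DPE1 from 0 h to 6 h differed between the tissues, with the shoot change larger by 3.07 ± 0.19 (SE) on the log2 scale (F = 89.0 over all times, adjusted p = 5.1e-12). The same test separated the shoot and root courses of PWD, with a difference of 2.55 ± 0.19 (SE; F = 71.0, adjusted p = 3.2e-11). It was passed by 40.9% of all probe sets. Since it holds the shoot course from which both genes were first named, its size is not independent of that choice. For each gene, both shoot arrays of 6 h lay above every root array.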

How the results depend on the processing

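Of 4124 values for DPE1 and PWD under 49 alternative settings, 4033 kept their side of the threshold, 85 lost a call and 6 gained one. No called value turned direction, while 45 values changed sign without a call. The time courses in roots (highest adjusted p 0.0385 for DPE1 and 0.0463 for PWD), the difference between courses and the overall tissue difference kept their calls in every setting run. The difference between courses and the overall tissue difference hold the shoot course from which the genes were first named. Nothing is therefore read from their calls being kept. With the 25S ribosomal RNA covariate the root difference of PWD between 6 h and 0 h was 0.473, and leaving out 1 array at a time gave 0.4471 to 0.6666. The PWD tissue difference at 0 h ran from 0.2217 to 0.4957 with 1 array left out. The count of synthesis genes called over time in shoots, 2, was 1 with no pseudocount, the stricter filter, the trend and robust prior, 1 tissue alone and the 25S covariate, 3 with a pseudocount of 50, and between 1 and 2 with 1 array left out. The stricter filter removes APL3, whose highest signal was 64.1, and the cause of the other moves was not tested. Nothing is read from the count of synthesis genes, since APL3 and AT5G39790 passed the filter through shoots alone. A replicate block left the DPE1 difference of 3.07 in place (adjusted p = 9.9e-12). It took the PWD root call at 3 h to an adjusted p of 0.0523. The overall median difference between tissues was -0.33, -0.21 after quantile normalization and -0.12 after centring on array medians. Probe sets called higher and lower in shoots then numbered 4767 and 9142, 5439 and 8313, and 5924 and 7693. Setting each probe set against a gene's mean was not run, since each gene had 1. Signals near 40, where DPE1 lay at 0 h and 24 h in shoots, are close to the filter, which limits folds there.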
